A study of Mus musculus with 89 samples.

Results

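Liver gene expression was compared between BALB/c mice that carried a K7M2 osteosarcoma in the tibia and BALB/c mice given buffer in the same bone. The K7M2-Tb group held 5 livers, taken 4 weeks after K7M2 cells in 10 µl of phosphate-buffered saline (PBS) had been injected into the tibia. The PBS-2 group held 5 livers, taken 4 weeks after 10 µl of PBS alone had been injected there. Age and sex were not given in the sources used here. These are 10 of the 89 samples, and 2 of the 23 groups, of a study of what tumours outside the liver, and the extracellular vesicles and particles (EVPs) they shed, do to liver gene expression. All 42687 genes of the authors' comparison of these groups were taken. Of these, 17350 had an adjusted p and are called tested, while the remaining genes had too few reads, an extreme count or no reads at all. K7M2 is a single mouse osteosarcoma line of BALB/c origin that spreads mainly to the lung, and its BALB/c hosts have an intact immune system. No other osteosarcoma line was compared with it here. Livers were frozen whole, so each value averages over all cells of the organ.

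A liver that senses a distant tumour or infection mounts the acute phase response. Cytokines such as interleukin 6 (IL-6), interleukin 1 and tumour necrosis factor (TNF) reach hepatocytes through the blood and act through the factors STAT3, C/EBP and NF-kB. Hepatocytes then make large amounts of serum amyloid A, haptoglobin, fibrinogen and complement, and less of carrier proteins such as transthyretin. Hepatocytes also carry the main metabolic work of the body, which includes respiration, fat oxidation, amino acid breakdown, bile acid synthesis and drug clearance. The liver is a site of blood formation in the fetus, and in adult mice it can take up that role again. Kupffer cells are its resident macrophages, stellate cells its matrix-making cells, and its sinusoids are lined by a specialised endothelium.

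The values were the authors' own results of 1 comparison, with a mean normalised count over all 10 livers, a log2 fold change of K7M2-Tb over PBS-2, its standard error and a p-value for each gene. Values of single livers were not used here, so neither the spread among the 5 livers of a group nor the overlap of the groups can be given. The p-values set the difference between the groups against the spread within them, as the authors' test estimated it from these 10 samples. Numbers after ± are standard errors. A gene was called at an adjusted p under 0.05 in the authors' deposited table. The authors shrank the fold changes toward 0, most strongly where few reads were counted. Mean normalised counts in each group were estimated here from the overall mean and the fold change with this shrinkage removed, and are given as estimated counts. An estimated level is that count per kilobase of all annotated exons of the gene joined together, scaled to the same total in both groups. It serves to compare genes with each other only roughly, because the joined exons can be longer than any single transcript.

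Of the genes tested, 2615 were higher in K7M2-Tb livers (15.1%) and 2237 were lower (12.9%), so 28% were called in all. The median log2 fold change over all tested genes was -0.01, so the calls are relative to a centre near 0. Rises were larger than falls, with medians of 0.81 and -0.47 among the called genes. A log2 change of at least 1 was reached by 1044 rises and 301 falls, one of at least 3 by 133 rises and 7 falls, and one of at least 5 by 33 rises and 0 falls. Falls were more frequent among abundant genes: of 2335 tested genes with a mean count between 1000 and 10000, 359 were higher and 697 lower. Calls were spread over the genome, with 12.9% to 18.7% of the tested genes of a chromosome higher and 8.68% to 16.1% lower.

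Albumin, the hepatocytes' main product, stood at rank 1 by estimated level in K7M2-Tb livers and at rank 1 in PBS-2 livers. Most markers of bone-forming cells were near absent. Sp7, Bglap, Bglap2, Ibsp, Dmp1, Phex, Mepe, Sost and Omd had mean counts between 0 and 0.63 over all livers and were not tested. Markers that other cells of the liver also express were present: Alpl, with a mean count of 642, was not called, and the parathyroid hormone receptor gene Pth1r, with a mean count of 297, was lower at -0.66 ± 0.17 in the authors' deposited table. The Y-linked genes Ddx3y, Eif2s3y, Kdm5d and Uty were listed at 0, and Xist, transcribed from the inactive X chromosome, had a mean count of 16618.

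The 12 largest rises held acute phase genes and granule genes of neutrophils. They were Lcn2, Saa2, Mpo, Prtn3, Saa1, Ctsg, Ltf, Ngp, Saa3, Camp, Elane and Ly6d, with log2 fold changes of 6.39 to 8.86 in the authors' deposited table. The 12 largest falls were Ces3b, Krt23, Ntrk2, Hamp2, Lrit2, Fam25c, S100g, Gsta2, Acot1, Acaa1b, Hamp and Etnppl, between -4.15 and -2.32 in that table. Among these, Ces3b, Gsta2, Acot1, Acaa1b and Etnppl encode metabolic enzymes, Hamp and Hamp2 encode hepcidins, and Ntrk2 encodes the receptor of brain-derived neurotrophic factor. Krt23, a keratin gene, had estimated counts of 22.7 in K7M2-Tb livers and 404 in PBS-2 livers. Ntrk2 had 24.6 in K7M2-Tb livers and 299 in PBS-2 livers.

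Serum amyloid A is the lipoprotein-bound protein that marks inflammation most strongly in mice, and pentraxins are its relatives in function, which bind microbes and debris. All 6 listed genes were higher. Estimated counts of Saa1 were 99933 in K7M2-Tb livers and 301 in PBS-2 livers, those of Saa2 were 64157 in K7M2-Tb livers and 142 in PBS-2 livers and those of Saa3 were 23599 in K7M2-Tb livers and 138 in PBS-2 livers. The constitutive Saa4 had estimated counts of 32488 in K7M2-Tb livers and 5730 in PBS-2 livers. Apcs, the serum amyloid P component that is the main inducible pentraxin of mice, had 66325 in K7M2-Tb livers and 7259 in PBS-2 livers, and C-reactive protein (Crp), which is barely inducible in mice, had 11301 in K7M2-Tb livers and 6452 in PBS-2 livers. The authors' deposited table gives log2 fold changes of 8.36 ± 0.21 for Saa1, 7.41 ± 0.16 for Saa3 and 3.19 ± 0.09 for Apcs. For Crp it gives 0.77 ± 0.13, with an adjusted p of 5.33e-09 by DESeq2 with Benjamini-Hochberg adjustment. Saa1 and Saa2 are near-identical copies, so reads may have been split between them unevenly. Saa3 (GRCm38 chr7:46711998-46715700), Saa1 (chr7:46740497-46742980) and Saa2 (chr7:46751790-46754313) lie in 1 cluster on that chromosome.

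Of the 22 other acute phase genes, 21 were higher and none was lower, with a median log2 fold change of 2.88. They took 12.5% of all estimated counts in K7M2-Tb livers and 2.47% in PBS-2 livers. Lipocalin 2 (Lcn2), which binds bacterial iron carriers, had estimated counts of 82912 in K7M2-Tb livers and 178 in PBS-2 livers, at rank 29 by estimated level in K7M2-Tb livers and rank 6353 in PBS-2 livers. Haemopexin (Hpx), the haem scavenger, and haptoglobin (Hp), the haemoglobin scavenger, stood at ranks 2 and 3 in K7M2-Tb livers, with estimated levels of 44466 and 39188, against 5613 and 4916 in PBS-2 livers. Of the 3 orosomucoids, binding proteins of the plasma, Orm2 changed most in the authors' deposited table, at 5.95 ± 0.17, and Orm1 and Orm3 were at 3.24 ± 0.09 and 2.91 ± 0.28. The 3 are close copies, and the split of reads among them is uncertain. The estimated level of Orm2 was 10885 in K7M2-Tb livers and 188 in PBS-2 livers. The fibrinogen chains Fga, Fgb and Fgg rose together, at 1.90, 1.84 and 1.73 in that table, and the related liver protein gene Fgl1 was at 3.12. The lipopolysaccharide-binding protein gene Lbp had estimated counts of 18681 in K7M2-Tb livers and 2570 in PBS-2 livers, and its partner Cd14 had 1952 in K7M2-Tb livers and 72.8 in PBS-2 livers. Lrg1, a glycoprotein gene also made by neutrophils, was at 3.44 ± 0.15 in the authors' deposited table. Steap4, a metalloreductase, was at 3.88 ± 0.27 there, and Il1rn, the natural antagonist of the interleukin 1 receptor, at 3.79 ± 0.31. The 1 gene not called was Serpina3m, at 0.04 ± 0.13 in that table.

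The promoters of 4 of these strongly risen genes are shown because each holds a C/EBP site, the binding motif of the factors through which IL-6 and interleukin 1 act on acute phase genes. Capitals mark the motif TTGCNNAA, searched on both strands with overlapping matches allowed. Each run is the 250 bases before the start site, read 5′ to 3′ on the strand of the gene, from the RefSeq table on GRCm38.p6. The Saa1 promoter is chr7:46742981-46743230 on the minus strand, that of Saa2 chr7:46751583-46751832 on the plus strand, that of Lcn2 chr2:32387740-32387989 on the minus strand and that of Orm2 chr4:63362199-63362448 on the plus strand.
Saa1: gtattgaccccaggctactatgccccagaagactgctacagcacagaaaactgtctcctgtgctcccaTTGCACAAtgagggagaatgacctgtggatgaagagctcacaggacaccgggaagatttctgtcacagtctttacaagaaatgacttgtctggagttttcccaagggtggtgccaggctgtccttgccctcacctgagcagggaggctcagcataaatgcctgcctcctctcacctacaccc
Saa2: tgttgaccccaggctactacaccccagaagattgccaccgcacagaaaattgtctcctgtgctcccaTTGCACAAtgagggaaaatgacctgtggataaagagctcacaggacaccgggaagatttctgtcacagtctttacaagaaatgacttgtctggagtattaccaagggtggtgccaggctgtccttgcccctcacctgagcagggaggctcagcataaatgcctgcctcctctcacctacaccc
Lcn2: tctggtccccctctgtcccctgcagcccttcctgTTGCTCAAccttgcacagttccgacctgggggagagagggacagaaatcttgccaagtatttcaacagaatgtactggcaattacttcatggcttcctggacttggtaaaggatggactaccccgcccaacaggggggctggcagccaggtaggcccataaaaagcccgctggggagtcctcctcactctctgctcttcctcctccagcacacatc
Orm2: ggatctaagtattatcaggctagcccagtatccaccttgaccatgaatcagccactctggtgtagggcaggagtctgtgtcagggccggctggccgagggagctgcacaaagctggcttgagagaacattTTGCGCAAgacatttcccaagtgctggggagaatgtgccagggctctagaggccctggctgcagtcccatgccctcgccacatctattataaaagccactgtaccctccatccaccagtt
The Saa1 and Saa2 runs hold the same 8 letters, 182 to 175 bases before the start site in Saa1 and 183 to 176 bases in Saa2. In Lcn2 the match lay 216 to 209 bases before the start, and in Orm2 120 to 113 bases, where it reads the same on both strands. In windows from 250 bases before to 50 bases after the start, the motif was found in 4 of 6 serum amyloid and pentraxin genes and in 8 of 15 matched acute phase genes, against 10.8% of all 27025 genes in the table. The NF-kB motif, GGGAA and CC with 3 bases of any kind between them on either strand, was found in 1 of 15 matched acute phase genes, against 5.67% of all genes. The C/EBP motif was also in 12 of 41 matched cytochrome P450 genes of families 1 to 3, a list with more falls than rises. It was in 8 of 29 matched neutrophil genes too. Among matched genes it was in 10.97% of those called higher and 9.546% of those called lower. The STAT motif, TTC and GAA with 3 bases of any kind between them, was found in 4 of 15 matched acute phase genes. It was in 1 of 6 serum amyloid and pentraxin genes, and in 8.466% of all genes. A match describes letters and not binding.

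Genes whose plasma proteins fall in inflammation did not move as 1 group. Of 14 tested, 6 were higher and 4 lower. Transthyretin (Ttr), carrier of thyroid hormone and of retinol-binding protein, had estimated counts of 88887 in K7M2-Tb livers and 199962 in PBS-2 livers, and its partner Rbp4 had 40570 in K7M2-Tb livers and 59532 in PBS-2 livers. Apoa2, of high-density lipoprotein, had 95507 in K7M2-Tb livers and 193084 in PBS-2 livers, and Serpina6, the cortisol-binding globulin gene, had 8828 in K7M2-Tb livers and 16741 in PBS-2 livers. These 4 genes fell, at -1.14, -0.52, -0.98 and -0.79 in the authors' deposited table. In that table Alb was at 0.18 ± 0.08, Ahsg, the fetuin A gene, at 0.06 ± 0.11 and Apoa1 at 0.01 ± 0.11, and none of the 3 was called. The genes that rose were Pzp, Ambp, Trf, Itih1, Fetub and Gc. Pzp, which encodes a broad protease trap, was at 1.35 ± 0.15, and Ambp, the precursor gene of alpha-1 microglobulin and bikunin, was at 0.97 ± 0.07 in that table. Together the 14 genes took 17.3% of all estimated counts in K7M2-Tb livers and 17.5% in PBS-2 livers.

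**Figure D1:**
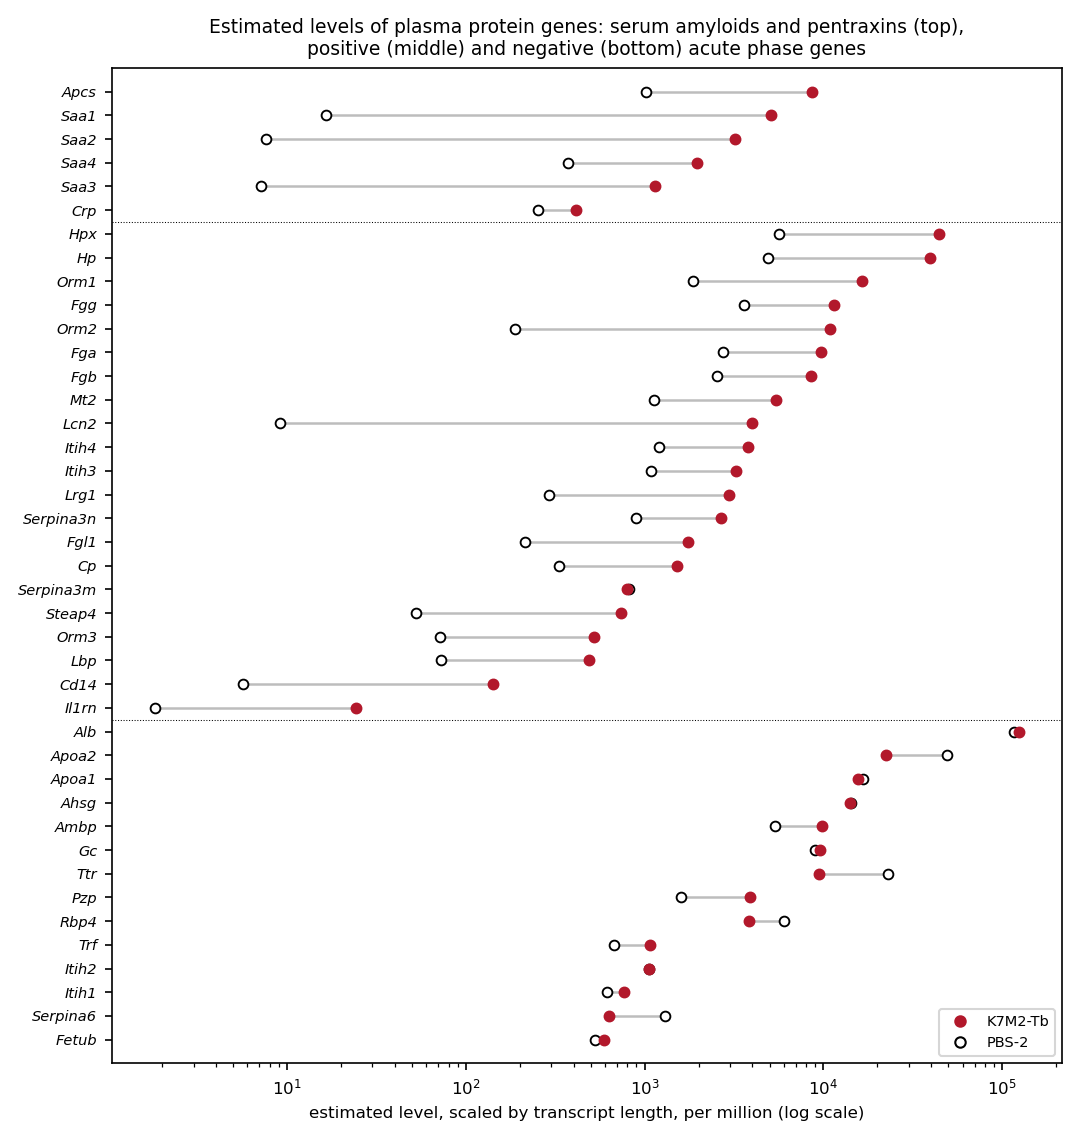
Estimated level of each plasma protein gene in K7M2-Tb livers (filled red) and PBS-2 livers (open), on a log axis. Levels are counts per kilobase of joined exons, which is the length meant on the axis, scaled to the same total. The 3 groups are serum amyloids and pentraxins, acute phase genes, and negative acute phase genes. The amyloid and acute phase points of K7M2-Tb lie to the right of those of PBS-2 except for Serpina3m, while the negative group holds shifts both ways; each point is an estimated group value without a spread.

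Among genes of the IL-6 family pathway, ligands were not called and several receptors and factors were. By the authors' DESeq2 test 0 of 6 ligand genes were called, and 0 had an unadjusted p under 0.05; Il6 itself had a mean count of 2.64 over all livers. Il6st, the shared receptor gp130, rose by 0.36 ± 0.11 and Osmr, the oncostatin M receptor, by 0.96 ± 0.22 in the authors' deposited table, while Lifr and Il11ra1 were lower at -0.37 and -0.52. Stat3 had estimated counts of 3454 in K7M2-Tb livers and 1713 in PBS-2 livers, and Cebpd had 204 in K7M2-Tb livers and 103 in PBS-2 livers. Both were called higher, whereas Cebpb was at 0.00 ± 0.18 in that table. Socs3, the STAT3-induced inhibitor of the same pathway, had estimated counts of 1276 in K7M2-Tb livers and 219.8 in PBS-2 livers.

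In the TNF and interleukin 1 families, 14 of 22 tested genes were higher and none lower. All 4 inhibitors rose: Il1rn, the decoy receptor Il1r2, the interleukin 18 binding protein Il18bp and Tnfaip3, the ubiquitin-editing brake on NF-kB. Il18bp had estimated counts of 939.6 in K7M2-Tb livers and 255 in PBS-2 livers and Tnfaip3 had 280.1 in K7M2-Tb livers and 58.2 in PBS-2 livers. The receptors Il1r1 and Tnfrsf1a were at 1.73 ± 0.26 and 1.04 ± 0.10 in the authors' deposited table. Among ligands, Il1b was at 1.56 ± 0.27 and the alarmin Il33 at 1.23 ± 0.18 in that table, while Tnf, at a mean count of 5.24, was not called. Of the other cytokine genes, all 12 listed receptors were higher, with a median of 1.17, and 2 of the 7 tested ligands, Tgfb1 and Csf1. The largest receptor rises were in Csf2rb2 (2.55 ± 0.16) and Csf2rb (2.43 ± 0.17), beta chains of the receptors for GM-CSF and interleukin 3 in that table.

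Of NF-kB genes, 14 of 21 were higher and 1 was lower. All 7 inhibitors rose, with Nfkbiz at 1.07 ± 0.23, Nfkbie at 0.79 ± 0.19 and Nfkbia at 0.56 ± 0.23 in the authors' deposited table. The subunits Relb, Nfkb2 and Nfkb1 rose, and Rela was at 0.00 ± 0.10. The adhesion receptors Icam1 and Vcam1, which slow leukocytes on the vessel wall, had estimated counts of 1041 and 576 in K7M2-Tb livers, against 245 and 208 in PBS-2 livers. The gene that was lower was Sod2, at -0.23 ± 0.09. Among sensors of microbial products, 15 of 19 rose. Tlr2 had estimated counts of 344 in K7M2-Tb livers and 32.5 in PBS-2 livers, Tlr1 had 90.6 in K7M2-Tb livers and 31.3 in PBS-2 livers, and Irak3, an inhibitor of Toll-like receptor signals, had 62.2 in K7M2-Tb livers and 15.2 in PBS-2 livers.

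Of 39 tested chemokine and receptor genes 15 were higher and 2 lower, with a median of 0.10; the lower genes were Ccl25 and the skin-homing ligand Ccl27a (-1.06 ± 0.60), which has near-identical copies and is uncertain. Cxcl1, which draws neutrophils, had estimated counts of 9196 in K7M2-Tb livers and 1033 in PBS-2 livers, whereas Cxcl2 had 3.82 in K7M2-Tb livers and 3.11 in PBS-2 livers and was not called. Ppbp, a platelet chemokine, rose by 4.34 ± 0.40 in the authors' deposited table. Of 8 monocyte ligands, Ccl2, Ccl6, Ccl9 and Ccl24 rose. Of 10 lymphocyte ligands, Cxcl10, Cxcl13 and Cxcl16 rose and Ccl25 fell (-0.60), and Cxcl9 was at 0.03 ± 0.13 in that table. In all, 6 of 15 receptor genes rose, with Ccr1 at 2.28, Cxcr2 at 2.14 and Ccr2 at 1.96 in that table.

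Complement is the plasma cascade that tags and lyses microbes, and the liver makes most of it. Of 36 listed genes, 30 were higher and 1 was lower, with a median of 1.17, and they took 4.01% of estimated counts in K7M2-Tb livers and 2.01% in PBS-2 livers. C3, the central component, had estimated counts of 427837 in K7M2-Tb livers and 170658 in PBS-2 livers, and C4b had 47562 in K7M2-Tb livers and 17608 in PBS-2 livers. The terminal genes C8a and C8b rose by 1.96 ± 0.11 and 1.47 ± 0.12 in the authors' deposited table, but C8g, the third chain of the same protein, fell, at -0.50 ± 0.15. Inhibitors rose as well, with C4bp and Serping1 at 1.38 and 1.14 in that table. The macrophage-made C1qa, C1qb and C1qc were at 1.43, 1.59 and 1.60 there. Fcnb, a ficolin of maturing neutrophils, had estimated counts of 57.9 in K7M2-Tb livers and 0.242 in PBS-2 livers. The lectin pathway genes Mbl2 and Masp2 were at -0.05 ± 0.09 and -0.01 ± 0.07 in that table and were not called.

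Coagulation genes changed less. Of 33, 19 were higher and 2 lower, with a median of 0.34. Among factors made by hepatocytes, Serpina10, an inhibitor of activated factor X, was at 1.57 ± 0.09, Cpb2, which slows clot lysis, at 1.11 ± 0.10, and Kng1, a kininogen gene, at 1.09 ± 0.09 in the authors' deposited table. F13a1, which monocytes and platelets make, was at 4.40 ± 0.48 there. Klkb1 and Proc, the genes of prekallikrein and protein C, were lower at -0.40 ± 0.12 and -0.23 ± 0.10 in the authors' deposited table. Prothrombin (F2) was higher by 0.22 ± 0.07, and antithrombin (Serpinc1) was at -0.14 ± 0.07 there without a call. The Serpina cluster of protease inhibitors split, with 8 of 19 higher and 5 lower. Serpina3n, an antichymotrypsin of the acute phase, had estimated counts of 43461 in K7M2-Tb livers and 13541 in PBS-2 livers. Serpina1b, an abundant alpha-1 antitrypsin gene, was at 0.00 ± 0.10 in that table. Members of the Serpina1 and Serpina3 families are close copies, and their split is uncertain.

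Iron genes moved both ways, 13 of 33 higher and 11 lower. Hepcidin, the hormone that keeps iron inside macrophages and gut cells, is induced by IL-6 and by bone morphogenetic proteins and lowered by red cell formation. Hamp had estimated counts of 3754 in K7M2-Tb livers and 23679 in PBS-2 livers, with a log2 fold change of -2.43 ± 0.61 and an adjusted p of 5.86e-06 in the authors' deposited table (DESeq2). Hamp2, a close copy whose share of the reads is uncertain, had 827 in K7M2-Tb livers and 10287 in PBS-2 livers. By estimated level Hamp stood at rank 85 in K7M2-Tb livers and at rank 12 in PBS-2 livers. Listed genes of the bone morphogenetic protein branch were lower too: Bmp6, the endothelial ligand, was at -0.98 ± 0.29, its targets Id1 and Smad7 at -1.19 ± 0.30 and -1.07 ± 0.25, and Bmp2 at -0.43 ± 0.16 in the authors' deposited table. Fam132b, the gene of the erythroid hormone erythroferrone, had estimated counts of 2.87 in K7M2-Tb livers and 0.884 in PBS-2 livers. Transferrin (Trf), the zinc and iron importer Slc39a14, Hmox1, which degrades haem, and Cd163, the receptor for haptoglobin-bound haemoglobin, rose by 0.71, 1.45, 1.44 and 1.52 in the authors' deposited table. The ferritin chain Ftl1 fell, at -0.50 ± 0.11, while Fth1 was at -0.11 ± 0.08 and ferroportin (Slc40a1) at 0.01 ± 0.14 without a call in that table. Of 12 haem synthesis enzymes, only the erythroid Alas2 rose, at 0.88 ± 0.18, and Alad, Uros, Urod and Ppox fell.

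Many genes of developing blood cells were near 0 in PBS-2 livers and rose in K7M2-Tb livers. In frozen whole liver, the number of cells of a type and the RNA per cell cannot be told apart. A gene was tested only above a minimum mean count, which genes near 0 in PBS-2 livers could reach only through the K7M2-Tb livers, so the share of called members is a description. Where the estimated count in PBS-2 livers is under a few reads, the fold change is set largely by that small number.

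All 32 tested neutrophil genes were higher, with a median of 4.26, and they took 0.529% of estimated counts in K7M2-Tb livers and 0.0404% in PBS-2 livers. The azurophil granule genes, which are transcribed in promyelocytes, had the highest median, at 7.91. Mpo, the myeloperoxidase gene, had estimated counts of 759.6 in K7M2-Tb livers and 1.72 in PBS-2 livers, Prtn3, the proteinase 3 gene, had 1091 in K7M2-Tb livers and 3.04 in PBS-2 livers, Elane, neutrophil elastase, had 242 in K7M2-Tb livers and 1.86 in PBS-2 livers and Ctsg, cathepsin G, had 125 in K7M2-Tb livers and 0.471 in PBS-2 livers. Specific granule genes of myelocytes followed, with Ltf, lactoferrin, at 427 in K7M2-Tb livers and 1.77 in PBS-2 livers, and Camp, the cathelicidin gene, at 349.9 in K7M2-Tb livers and 2.02 in PBS-2 livers. Genes of mature cells were higher as well: S100a9, an alarmin, had estimated counts of 2061 in K7M2-Tb livers and 52.7 in PBS-2 livers, Cxcr2 had 46.5 in K7M2-Tb livers and 9.94 in PBS-2 livers, Csf3r had 274 in K7M2-Tb livers and 83.8 in PBS-2 livers and Ly6g had 29.8 in K7M2-Tb livers and 0.63 in PBS-2 livers. Their median was 3.18. Lcn2, counted above among acute phase genes, is on this list too and makes up most of its share in K7M2-Tb livers. Lcn2 had 82912 of the list's 105664 estimated counts in K7M2-Tb livers, and 178 of its 7324 in PBS-2 livers. Wfdc21, also listed, was abundant in both groups, with estimated counts of 11474 in K7M2-Tb livers and 5975 in PBS-2 livers. Factors of granulocyte development rose with them, with Cebpe at 5.64 ± 1.22 and Gfi1 at 3.44 ± 0.72 in the authors' deposited table.

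Red cell genes rose in the membrane group and among globins, where medians were 4.62 and 0.51. All 11 membrane and blood group genes rose. Slc4a1, the band 3 anion exchanger, had estimated counts of 218 in K7M2-Tb livers and 8.59 in PBS-2 livers, Ermap had 57.6 in K7M2-Tb livers and 0.777 in PBS-2 livers and Kel had 32.0 in K7M2-Tb livers and 0.301 in PBS-2 livers. Gata1, the master factor of the lineage, had 22.99 in K7M2-Tb livers and 0.298 in PBS-2 livers. Of 4 globin genes, which circulating red cells also carry, 3 rose, with Hbb-bt at 0.71 ± 0.22, Hbb-bs at 0.56 ± 0.24, Hba-a1 at 0.46 ± 0.21 and the uncalled Hba-a2 at 0.15 ± 0.16 in the authors' deposited table. Car1 was lower, at -0.99 ± 0.23, and Epor was at -0.25 ± 0.19 without a call. Hba-a1 and Hba-a2 are near-identical, and their split is uncertain.

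All 14 platelet and megakaryocyte genes rose, with a median of 3.53. Gp1ba, a chain of the von Willebrand factor receptor, had estimated counts of 30.5 in K7M2-Tb livers and 1.34 in PBS-2 livers and Tubb1, the platelet tubulin, had 39.9 in K7M2-Tb livers and 2.74 in PBS-2 livers. Thpo, the liver-made hormone of platelet formation, was at 0.15 ± 0.17 in the authors' deposited table and was not called. Among progenitor genes 12 of 18 rose, Myb at 3.55 ± 0.59 and Nfe2 at 2.25 ± 0.42 in that table, whereas Kit, Cd34, Gata2 and Meis1, genes of early progenitors, were at 0.07, -0.20, 0.15 and 0.03 without a call. The basophil proteases Prss34 and Mcpt8 rose to estimated counts of 9.89 and 9.85 in K7M2-Tb livers, against 0.227 and 0.38 in PBS-2 livers.

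Macrophage genes rose in both the resident and the recruited lists. Of 15 Kupffer genes 12 were higher, including Clec4f, a Kupffer cell lectin, with estimated counts of 5508 in K7M2-Tb livers and 1887 in PBS-2 livers, and Timd4, a marker of embryonic origin, with 409 in K7M2-Tb livers and 149.6 in PBS-2 livers. Marco, a scavenger receptor, had 412 in K7M2-Tb livers and 41.7 in PBS-2 livers. Nr1h3 and Slc40a1 were not called, and Id3 was lower at -0.45 ± 0.29 in the authors' deposited table. Of 17 monocyte and recruited macrophage genes 13 were higher, including Ly6c2, Ccr2 and Fcgr1, with estimated counts of 45.7, 181 and 158 in K7M2-Tb livers, against 3.65, 45.2 and 32.2 in PBS-2 livers. Trem2, Cx3cr1, Mrc1 and Arg1 were not called. All 6 genes of the phagocyte oxidase rose, between 1.16 for Cyba and 2.11 for Ncf4 in that table, while of 10 lysosomal genes 3 rose and 7 were not called, with a median of 0.12. Dendritic cell genes gave 7 rises and 1 fall among 12, with Batf3 at 1.50 ± 0.36 and Zbtb46 at -0.58 ± 0.16 in that table.

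Lymphocyte genes were mostly not called. Of 18 tested genes of cytotoxic T and natural killer cells, Nkg7 and Cd4 rose, and Cd4 is also made by macrophages and dendritic cells. Cd8a, Gzma, Gzmb, Prf1 and Ncr1 had estimated counts of 5.35, 17.1, 11.1, 5.75 and 13.6 in K7M2-Tb livers, against 4.95, 20.7, 10.7, 4.55 and 11.6 in PBS-2 livers. The standard error had a median of 0.39 over tested genes with a mean count under 10, and of 0.26 over those between 10 and 50, in the authors' deposited table, so small changes were not detectable at such counts. These are errors of the shrunken fold changes, and shrinkage can hold them down where few reads were counted. Genes such as Fgf23, with a mean count of 0, were listed with an error of only 0.69. Larger changes may therefore have been missed as well. Of 20 B and plasma cell genes, Xbp1, Cd22 and Ighg1 rose, and Xbp1 is abundant in hepatocytes. Cd79a and Ighm were at -0.07 ± 0.19 and 0.13 ± 0.12 in the authors' deposited table.

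**Figure D2:**
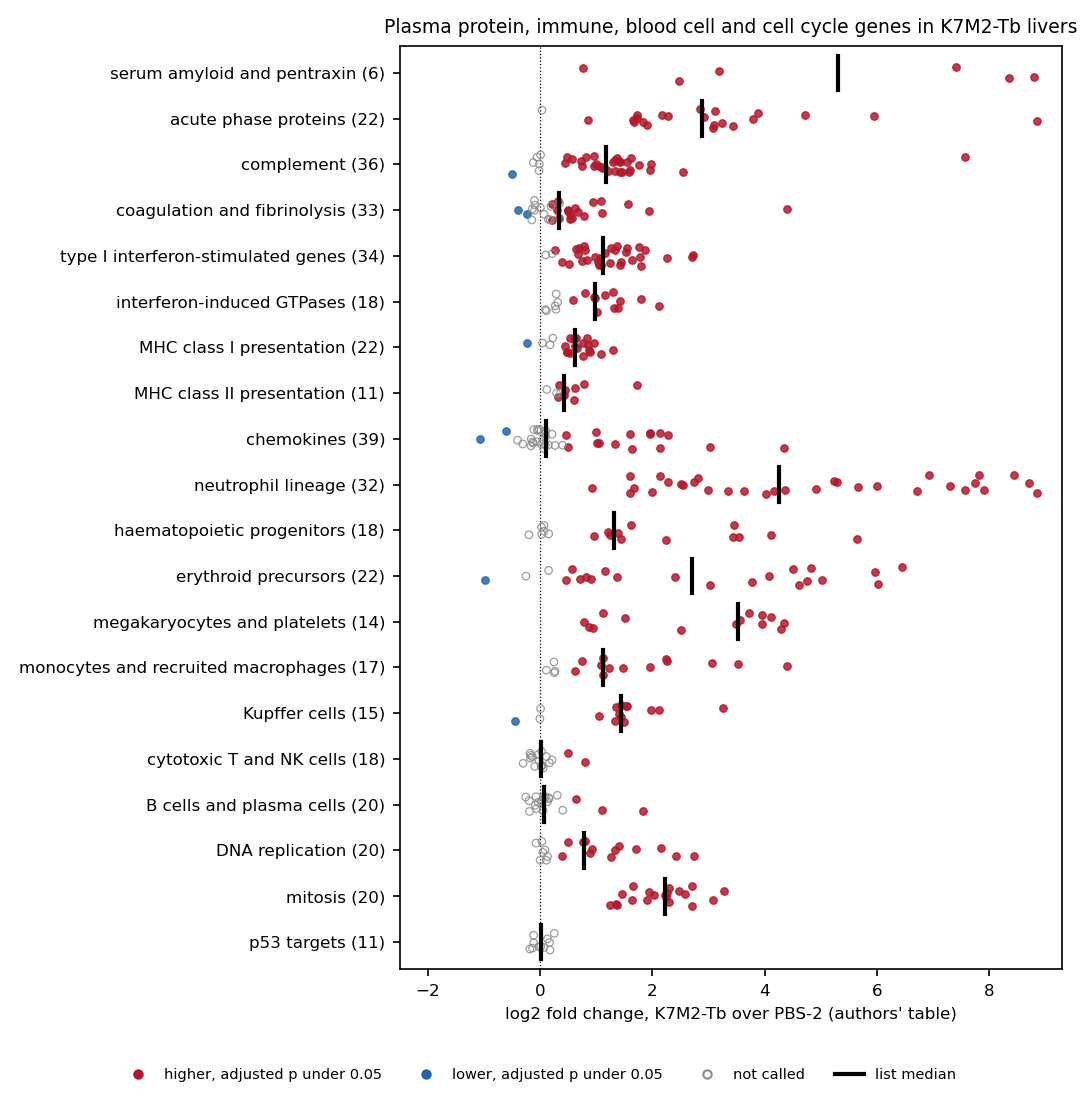
Log2 fold change of K7M2-Tb over PBS-2 livers in the authors' table for each tested gene of 20 lists of plasma protein, immune, blood cell and cell cycle genes; filled points were called, open points were not, the bar is the list median and the number in brackets is the count of tested genes. Neutrophil genes reach from 0.93 to 8.86, mitotic genes all lie above 0, and the T cell, B cell and p53 lists centre near 0.

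Interferons are cytokines that set antiviral programmes, and most of their listed target genes rose. Ifng, the gene of interferon gamma, had a mean count of 0.811 and was not tested. Of 34 genes induced by type I interferon, 32 were higher and none lower, with a median of 1.12. Zbp1, a sensor of nucleic acids, had estimated counts of 1023 in K7M2-Tb livers and 211 in PBS-2 livers, Oas3, which makes the activator of RNase L, had 119.9 in K7M2-Tb livers and 17.3 in PBS-2 livers and Usp18, which switches the receptor off, had 931 in K7M2-Tb livers and 249 in PBS-2 livers. Irf7, the factor that amplifies the response, rose by 1.77 ± 0.16, while Stat2 and Ifi35 were at 0.10 ± 0.11 and 0.22 ± 0.13 in the authors' deposited table and were not called. Of 18 interferon-induced GTPase genes, 12 rose, led by Tgtp1 (2.11 ± 0.30) and Gbp2 (1.81 ± 0.23) in that table. Iigp1 was the most abundant of them, with estimated counts of 6690 in K7M2-Tb livers and 2640 in PBS-2 livers. Irf1, Gbp4, Gbp5, Gbp10, Gbp11 and Tgtp2 were not called, and Tgtp1 and Tgtp2 are near-identical copies.

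The promoters of Isg15, a ubiquitin-like modifier gene, and of Igtp, a GTPase gene, are shown for the interferon-stimulated response element. Capitals mark a pair of GAAA with 2 bases of any kind between them, searched on both strands with overlapping matches allowed and joined where they overlap. The Isg15 run is chr4:156200819-156201068 on the minus strand and the Igtp run chr11:58199306-58199555 on the plus strand of GRCm38.p6, from RefSeq, both 250 bases before the start site.
Isg15: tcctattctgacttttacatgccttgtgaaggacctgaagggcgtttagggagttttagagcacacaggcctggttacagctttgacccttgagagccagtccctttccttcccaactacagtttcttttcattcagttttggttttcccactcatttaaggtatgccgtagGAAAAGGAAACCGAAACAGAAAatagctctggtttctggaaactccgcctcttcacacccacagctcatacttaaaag
Igtp: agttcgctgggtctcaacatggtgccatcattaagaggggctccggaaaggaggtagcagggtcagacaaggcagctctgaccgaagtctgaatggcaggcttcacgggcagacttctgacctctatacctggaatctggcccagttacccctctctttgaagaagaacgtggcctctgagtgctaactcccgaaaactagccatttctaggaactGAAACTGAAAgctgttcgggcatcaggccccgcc
Isg15 holds 3 overlapping matches, 78 to 57 bases before the start site, and Igtp holds 1, 34 to 25 bases before it. The motif was found in 14 of 24 matched interferon-stimulated genes and in 9 of 11 matched GTPase genes, against 3.49% of all genes in the table. In the authors' deposited table Isg15 was at 1.63 ± 0.18 and Igtp at 1.02 ± 0.14.

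Antigen presentation by MHC class I followed, with 18 of 22 genes higher. The heavy chains H2-D1 and H2-K1 had estimated counts of 16327 and 13174 in K7M2-Tb livers, against 9019 and 8286 in PBS-2 livers. The peptide pump gene Tap1 and the immunoproteasome gene Psmb8 rose by 0.96 ± 0.16 and 1.09 ± 0.13 in the authors' deposited table. B2m, the shared light chain, was at 0.18 ± 0.11 without a call, and H2-Q10, a secreted class I gene of hepatocytes, was lower at -0.24 ± 0.08. Class I heavy chain genes are close copies, and their split is uncertain. In MHC class II, 8 of 11 tested genes rose, with a median of 0.44.

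Genes of cell division rose. All 20 mitotic genes were higher, with a median of 2.23, and so were 13 of 20 replication genes, with a median of 0.79. Top2a, which untangles chromosomes, had estimated counts of 194 in K7M2-Tb livers and 28.3 in PBS-2 livers, Ccnb1, the mitotic cyclin, had 38.1 in K7M2-Tb livers and 3.56 in PBS-2 livers, and Cdk1, its kinase, had 86.7 in K7M2-Tb livers and 21.5 in PBS-2 livers. Mcm6 and Cdc6, which license origins, had 160.0 and 39.9 in K7M2-Tb livers, against 33.9 and 6.79 in PBS-2 livers. Pcna, Mcm7 and Tyms were not called, at 0.13, 0.00 and 0.03 in the authors' deposited table. Ccne1 was higher at 1.62 ± 0.44, Ccnd1 at 0.38 ± 0.21, and Ccnd2 was lower at -0.61 ± 0.19 in that table. By the authors' DESeq2 test 0 of 11 p53 targets were called and 0 had an unadjusted p under 0.05, Cdkn1a among them at -0.02 ± 0.36 in that table. Progenitor, erythroid and granulocyte genes rose in the same livers, and whether the dividing cells were blood cells or hepatocytes was not tested.

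Mki67 is shown because mitotic genes share the cell cycle homology region, through which the DREAM complex keeps them silent in resting cells. Capitals mark TTTGAA, searched on both strands with overlapping matches allowed, in the 250 bases before the start site, chr7:135716380-135716629 on the minus strand of GRCm38.p6, from RefSeq.
Mki67: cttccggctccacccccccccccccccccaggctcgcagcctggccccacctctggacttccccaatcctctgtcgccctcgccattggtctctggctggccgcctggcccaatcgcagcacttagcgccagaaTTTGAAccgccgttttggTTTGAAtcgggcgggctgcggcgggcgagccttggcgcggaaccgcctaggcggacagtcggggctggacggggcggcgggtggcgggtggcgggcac
Both matches lie on the strand of the gene, 116 to 111 and 98 to 93 bases before the start site. The motif was found in 11 of 16 matched mitotic genes, in 2 of 16 matched replication genes, in 18.1% of all genes and in 12.45% of the tested ones. This short motif was also in 5 of 11 matched interferon-induced GTPase genes and in 15 of 41 matched cytochrome P450 genes of families 1 to 3. The E2F motif TTTNNCGC was found in 10 of 16 matched replication genes, in 1 of 16 matched mitotic genes, in 5.27% of all genes and in 7.95% of the tested ones. Mki67 had estimated counts of 428 in K7M2-Tb livers and 49.3 in PBS-2 livers.

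Many genes of the liver's matrix-making and lining cells were lower. Of 40 stellate cell and matrix genes 22 fell and 5 rose, with a median of -0.46. Ecm1, an extracellular matrix protein that holds TGF-beta latent, had estimated counts of 1454 in K7M2-Tb livers and 3924 in PBS-2 livers, and Vipr1, a receptor for vasoactive intestinal peptide, had 437 in K7M2-Tb livers and 1104 in PBS-2 livers. Acta2, Tagln and Mmp2 were at -1.19 ± 0.45, -0.96 ± 0.26 and -1.40 ± 0.26 in the authors' deposited table. Collagen VI genes Col6a1 and Col6a2 and the collagen V gene Col5a1 fell by a like amount, at -0.97, -1.06 and -1.01 there. The 5 that rose were Col4a1, Col4a2, Fn1, Timp1 and Mmp14. Fibronectin (Fn1), which hepatocytes make, had estimated counts of 53225 in K7M2-Tb livers and 24396 in PBS-2 livers. General stellate markers Lrat, Des and Pdgfra were at -0.20 ± 0.30, 0.01 ± 0.20 and -0.01 ± 0.15 in that table without a call.

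Of 21 sinusoidal endothelial genes 9 fell and Maf rose. Ehd3 had estimated counts of 978 in K7M2-Tb livers and 2026 in PBS-2 livers, Oit3 had 227 in K7M2-Tb livers and 415 in PBS-2 livers, and Rspo3, the Wnt amplifier made by central vein endothelium, had 48.4 in K7M2-Tb livers and 96.2 in PBS-2 livers. Stab2, Lyve1, Pecam1 and Clec4g were at -0.07, 0.18, 0.00 and -0.15 in the authors' deposited table and were not called. Among bile duct genes Pkhd1 and Muc1 rose, while the keratins Krt7 and Krt19 were at -0.17 ± 0.23 and -0.31 ± 0.26 there.

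The nuclear genes of the respiratory chain fell by small and similar amounts. In complex I, 38 of 43 genes were lower, in complexes II and III 12 of 14, in complex IV 10 of 11 and in complex V, the ATP synthase, 14 of 15, and no gene of the 4 lists was higher. Their medians were -0.47, -0.47, -0.61 and -0.45. Ndufs7, a core subunit of complex I, had estimated counts of 1066 in K7M2-Tb livers and 1863 in PBS-2 livers, Cox6b1 of complex IV had 2804 in K7M2-Tb livers and 4661 in PBS-2 livers and Atp5o of the ATP synthase had 2455 in K7M2-Tb livers and 4164 in PBS-2 livers. The complex I genes not called were Ndufa2, Ndufa8, Ndufaf4, Ndufaf5 and Ndufaf7. Mitochondrial ribosome genes were lower in 39 of 76 cases with a median of -0.24, and cytosolic ribosome genes in 15 of 82 with a median of -0.11. Proteasome genes were lower in 11 of 35 (31.4%). Over all tested genes 12.9% were lower, and among those with a mean count between 1000 and 10000 it was 697 of 2335. The proteasome and cytosolic ribosome counts are therefore not read as falls particular to these lists. The 13 genes encoded in mitochondrial DNA were not analysed here. The motif of NRF1, a factor of respiratory genes, searched as GCGCA and GCGC with 1 base of any kind between them on either strand, was found in 9 of 38 matched complex I promoters, against 4.78% of all genes and 9.38% of the tested ones.

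In the tricarboxylic acid cycle 7 of 14 genes fell, with citrate synthase (Cs) at -0.66 ± 0.15 in the authors' deposited table, and Suclg2 rose by 0.27 ± 0.09. Of 12 genes of pyruvate entry 6 fell and 2 rose, with Mpc2, a subunit of the mitochondrial pyruvate carrier, at -0.66 ± 0.12 and the kinase Pdk2 at -0.91 ± 0.14 in that table.

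Many genes of fat oxidation were lower. In mitochondria 14 of 19 genes fell and in peroxisomes 7 of 12, and none rose. Acsl1, which activates fatty acids, had estimated counts of 6589 in K7M2-Tb livers and 14303 in PBS-2 livers, Cpt2, which completes their import, had 1634 in K7M2-Tb livers and 3026 in PBS-2 livers, and the peroxisomal Ehhadh had 2287 in K7M2-Tb livers and 7067 in PBS-2 livers. Acaa1b, the peroxisomal thiolase, had 4436 in K7M2-Tb livers and 24498 in PBS-2 livers, whereas its neighbour gene Acaa1a was at 0.06 ± 0.11 in the authors' deposited table. Cpt1a, the rate-setting enzyme of import, was at -0.01 ± 0.14 there. Targets of PPAR-alpha, the fatty acid sensor, fell in 8 of 14 cases, led by Acot1 (-2.56 ± 0.31), Cyp4a10 (-2.09 ± 0.23) and Cyp4a14 (-1.95 ± 0.25), and Vnn1 rose by 0.55 ± 0.27 in the authors' deposited table. Cyp4a genes are close copies, and their split is uncertain. Ppara was at -0.01 ± 0.18, and Fgf21, Plin2 and Angptl4, targets too, were at 0.35, -0.03 and -0.03 in that table without a call. Among ketone body genes Acat1 fell.

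In fat synthesis 11 of 26 genes fell and 2 rose. Scd1, which makes oleic acid, had estimated counts of 14094 in K7M2-Tb livers and 41601 in PBS-2 livers, Elovl5, which lengthens polyunsaturated fatty acids, had 4941 in K7M2-Tb livers and 11818 in PBS-2 livers, and Me1, which supplies NADPH, had 965 in K7M2-Tb livers and 1827 in PBS-2 livers. Acaca and Pnpla3 rose by 0.93 ± 0.22 and 1.27 ± 0.35 in the authors' deposited table, while Fasn was at 0.37 ± 0.38 and Srebf1 at -0.27 ± 0.35 without a call. Fabp5, a fatty acid binding protein of macrophages and other cells, had estimated counts of 1152 in K7M2-Tb livers and 239.6 in PBS-2 livers, and Lipc, hepatic lipase, had 2843 in K7M2-Tb livers and 6618 in PBS-2 livers.

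Most genes of cholesterol synthesis rose. Of 19 enzyme genes 14 rose and 1 fell, with a median of 0.93. Squalene epoxidase (Sqle) had estimated counts of 2468 in K7M2-Tb livers and 228 in PBS-2 livers, with an adjusted p of 1.5e-19 in the authors' DESeq2 table, Idi1 had 167 in K7M2-Tb livers and 41.0 in PBS-2 livers, Cyp51 had 3081 in K7M2-Tb livers and 944 in PBS-2 livers and Hmgcs1 had 8408 in K7M2-Tb livers and 3369 in PBS-2 livers. Ebp was lower at -0.50 ± 0.07 in the authors' deposited table. The factor gene Srebf2 rose by 0.74 ± 0.14 there, while Insig1 was at -0.17 ± 0.15. Abcg5 and Abcg8, the pair that secretes sterols into bile, were lower at -0.83 ± 0.16 and -0.94 ± 0.13, and Abca1 was higher at 0.54 ± 0.15. The sterol regulatory motif TCACNCCAC was found in 1 of 24 matched promoters, against 1.22% of all genes.

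Bile acid synthesis genes were lower in 5 of 10 cases. Cyp8b1, which sets the share of cholic acid, had estimated counts of 1758 in K7M2-Tb livers and 4335 in PBS-2 livers, Cyp27a1 had 2786 in K7M2-Tb livers and 6084 in PBS-2 livers and Cyp7b1 had 299 in K7M2-Tb livers and 665 in PBS-2 livers, both of the acidic pathway. Cyp7a1, the first enzyme of the classic pathway, was at -0.12 ± 0.33 in the authors' deposited table. Nr0b2, the repressor that bile acids induce, was also lower, at -1.23 ± 0.21. Of 20 tested transporter genes 3 were higher (15%) and 6 lower (30%). Over all tested genes 15.1% were higher and 12.9% lower, and among those with a mean count between 1000 and 10000, 697 of 2335 were lower. The transporter counts are therefore not read as changes particular to this list. The citrate importer Slc13a5 had estimated counts of 104 in K7M2-Tb livers and 14.7 in PBS-2 livers, and the bile salt pumps Slc10a1 and Abcb11 were at -0.11 ± 0.10 and -0.31 ± 0.17 in that table without a call.

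Many genes of drug-clearing enzymes were lower. Of 47 tested cytochrome P450 genes of families 1 to 3, 24 fell and 2 rose, with a median of -0.37. Cyp2b10, the classic target of the receptor CAR, had estimated counts of 272 in K7M2-Tb livers and 1117 in PBS-2 livers, and Cyp1a2 had 4806 in K7M2-Tb livers and 10947 in PBS-2 livers. Cyp2e1, the most abundant, had 107088 in K7M2-Tb livers and 153905 in PBS-2 livers, while Cyp3a11 was at 0.11 ± 0.12 in the authors' deposited table and was not called. The 2 that rose were Cyp2d40 and Cyp3a13. Nr1i3, the gene of CAR, and Nr1i2, that of the related receptor PXR, fell at -1.11 ± 0.22 and -0.52 ± 0.20 in that table. Among glutathione S-transferases 17 of 23 fell, with a median of -0.64. Gstm1 had estimated counts of 10970 in K7M2-Tb livers and 27362 in PBS-2 livers, Gsta3 had 14657 in K7M2-Tb livers and 26456 in PBS-2 livers, and Mgst2 alone of the list rose, at 1.44 ± 0.53 in that table. Carboxylesterase genes fell in 11 of 16 cases, with Ces3a at 1952 in K7M2-Tb livers and 8354 in PBS-2 livers and Ces1f at 2515 in K7M2-Tb livers and 8178 in PBS-2 livers by estimated counts, and Ces2g rose. Glucuronosyltransferase and sulfotransferase genes fell in 13 of 31, led by Sult2a8 (-2.11 ± 0.09) in that table. Of 13 antioxidant genes 9 fell, among them catalase (Cat) at -0.83 ± 0.09, Sod1 at -0.73 ± 0.12 and Gclc, of glutathione synthesis, at -0.85 ± 0.17, while Hmox1 rose and Srxn1, Txnrd1 and Sepp1 were not called. Many of these families hold close copies, and the split among them is uncertain.

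Of 24 genes of amino acid breakdown 17 fell, with a median of -0.51 and no rise. Genes along the tyrosine pathway were lower, with Tat, Hpd, Hgd and Fah at -0.68, -1.29, -1.04 and -0.42 in the authors' deposited table. Hpd had estimated counts of 25826 in K7M2-Tb livers and 64300 in PBS-2 livers. Got1, an aminotransferase, had 3517 in K7M2-Tb livers and 9356 in PBS-2 livers and Oat, of ornithine metabolism, had 7828 in K7M2-Tb livers and 16164 in PBS-2 livers. In the urea cycle Ass1, Otc, Slc25a15 and Gls2 fell, Ass1 to 11229 in K7M2-Tb livers, against 26942 in PBS-2 livers, while Cps1 and Arg1 were at -0.18 ± 0.13 and 0.11 ± 0.12 in that table without a call. Tdo2, the first enzyme of tryptophan breakdown, fell at -1.03 ± 0.11, and Ido1, its counterpart in immune cells, was listed at a mean count of 0. In the methionine cycle Gnmt, Ahcy, Cbs and Pemt fell, and Bhmt and Bhmt2 rose.

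Glucose genes moved both ways. In entry and glycolysis 8 of 15 genes rose and none fell. Ldha, lactate dehydrogenase, had estimated counts of 23683 in K7M2-Tb livers and 10393 in PBS-2 livers, Pklr, the liver pyruvate kinase, had 8045 in K7M2-Tb livers and 4114 in PBS-2 livers, and Hk2 and Slc2a3, low in normal hepatocytes, had 65.9 and 55.6 in K7M2-Tb livers, against 18.7 and 14.4 in PBS-2 livers. Hk3 and Pkm, which leukocytes carry, were at 1.42 ± 0.21 and 0.97 ± 0.16 in the authors' deposited table. In gluconeogenesis Pck1 and Foxo1 fell and Pcx and Pck2 rose, and G6pc was at -0.60 ± 0.48 without a call.

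**Figure D3:**
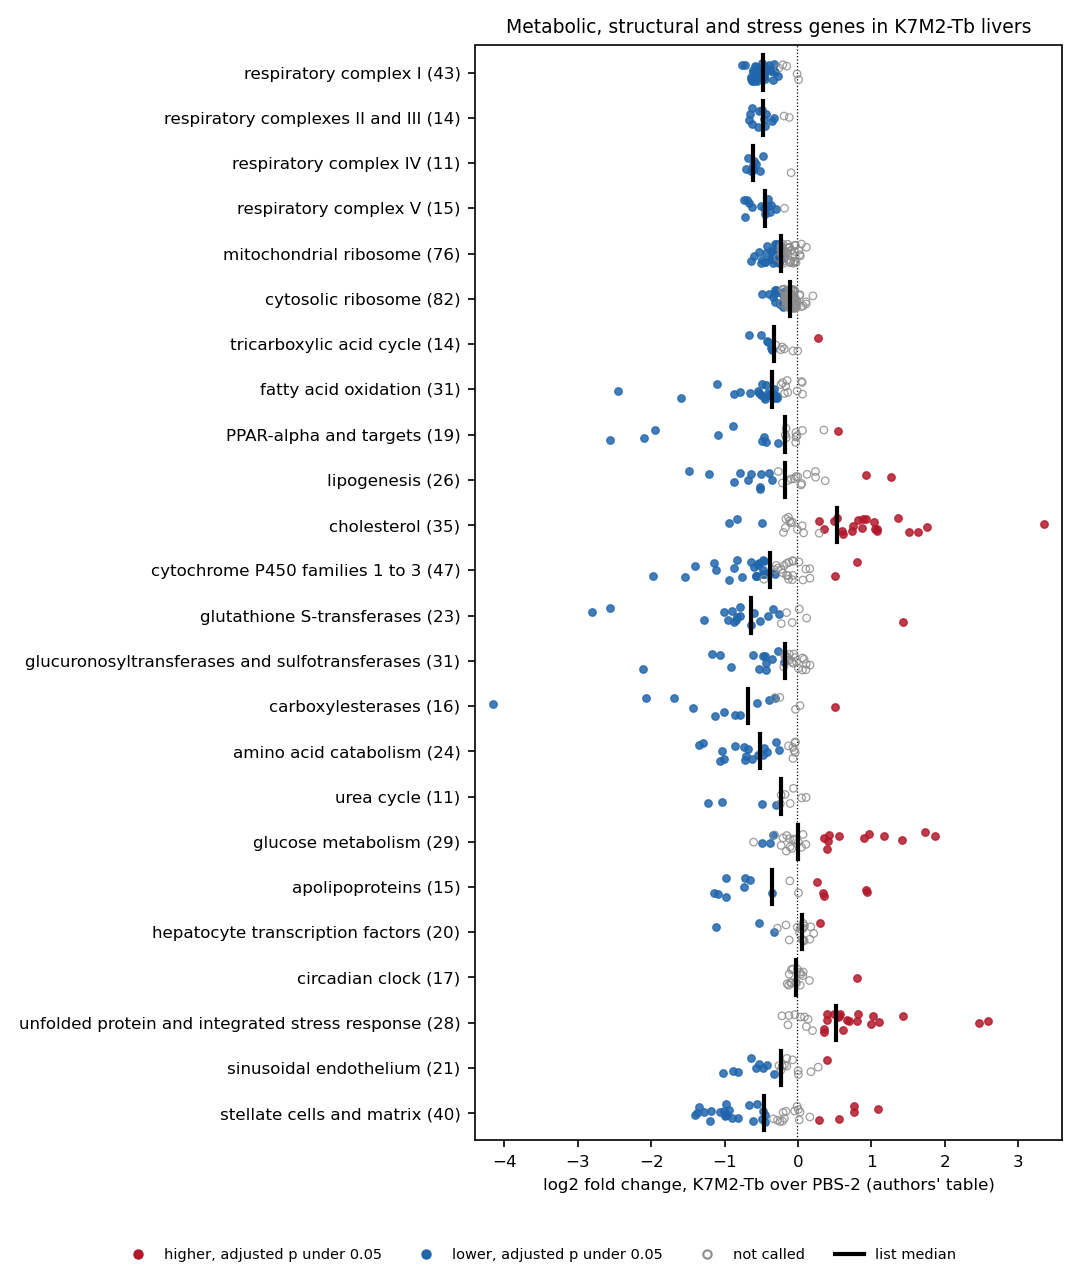
Log2 fold change of K7M2-Tb over PBS-2 livers in the authors' table for each tested gene of 24 lists of metabolic, structural and stress genes, marked as called higher, called lower or not called, with the list median as a bar. The respiratory lists form narrow groups below 0, with medians between -0.61 and -0.45, the enzyme families spread further to the left, and the cholesterol and unfolded protein lists have medians above 0.

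Of 17 tested genes of the growth hormone axis 7 were lower, 2 were higher and 8 were not called, with a median of -0.11. The lower genes were the growth hormone receptor Ghr and its targets Igf1, Igfals, Igfbp3, Hsd3b5, Prlr and Cyp2d9, with Hsd3b5 at -1.66 ± 0.31 in the authors' deposited table. Egfr and Cish rose, by 1.06 ± 0.27 and 1.02 ± 0.56. Of the major urinary protein genes Mup3, with estimated counts of 28066 in K7M2-Tb livers and 65821 in PBS-2 livers, and Mup20 fell; these genes are close copies, and their split is uncertain. Of apolipoproteins 8 of 15 fell and 5 rose. Apoe had estimated counts of 284601 in K7M2-Tb livers and 484128 in PBS-2 livers and Apoc3, an inhibitor of triglyceride clearance, had 21571 in K7M2-Tb livers and 48598 in PBS-2 livers, while Apob, of very-low-density lipoprotein, rose by 0.34 ± 0.14 and Pltp by 0.93 ± 0.21 in that table. Among secreted hormones Inhba, an activin chain, had estimated counts of 98.6 in K7M2-Tb livers and 21.2 in PBS-2 livers, and the stress hormones Fgf21 and Gdf15 were at 0.35 ± 0.45 and -0.36 ± 0.36 in that table and were not called.

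Most hepatocyte transcription factor genes were not called, with 1 of 20 higher, 3 lower and a median of 0.06. Hnf4a, Foxa2 and Cebpa were at 0.07 ± 0.11, 0.08 ± 0.17 and 0.03 ± 0.17 in the authors' deposited table, and the 3 that fell were Nr1i3, Nr1i2 and Foxa1. Genes of both ends of the liver lobule fell: 11 of 18 genes of the pericentral zone and 8 of 12 of the periportal zone fell. Pericentral falls included Lgr5 and Notum, targets of Wnt, at -0.69 ± 0.27 and -1.02 ± 0.14, and periportal falls included Sds at -0.85 ± 0.27 and Etnppl at -2.32 ± 0.26. Axin2, another Wnt target, was at -0.24 ± 0.24 without a call. The periportal genes that rose were Ctsc and Hsd17b13. Of 17 clock genes Bhlhe41 alone was called, and Arntl, Per2 and Nr1d1 were at -0.09 ± 0.41, 0.03 ± 0.31 and -0.07 ± 0.25. Among glucocorticoid targets Sgk1, Tat and Cyp2b10 fell, while Fkbp5 and Tsc22d3 were at 0.03 ± 0.19 and -0.12 ± 0.17 without a call. Immediate early genes, which respond to handling of tissue, gave 5 falls and 2 rises among 17, with Fos at -0.28 ± 0.31 and Atf3 at -0.84 ± 0.73.

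Genes of protein folding in the endoplasmic reticulum rose, all 12 chaperones among them, with a median of 0.64. Hspa5, the main chaperone BiP, had estimated counts of 26994 in K7M2-Tb livers and 14593 in PBS-2 livers, Manf had 3772 in K7M2-Tb livers and 1951 in PBS-2 livers, and the factor genes Xbp1 and Atf6 were at 1.10 ± 0.15 and 0.55 ± 0.12 in the authors' deposited table. Targets of the ATF4 branch were split. The amino acid synthesis genes Asns, Psat1 and Phgdh rose by 2.47 ± 0.42, 2.59 ± 0.36 and 1.43 ± 0.89, while Ddit3, Trib3, Chac1 and Sesn2 were at 0.14, 0.12, 0.04 and -0.13 without a call. The Hspa5 promoter is shown because it holds the endoplasmic reticulum stress element, to which ATF6 and XBP1 bind. Capitals mark CCAAT and CCACG with the 9 bases between them, of any kind, searched on both strands, in the 250 bases before the start, chr2:34771840-34772089 on the plus strand of GRCm38.p6, from RefSeq.
Hspa5: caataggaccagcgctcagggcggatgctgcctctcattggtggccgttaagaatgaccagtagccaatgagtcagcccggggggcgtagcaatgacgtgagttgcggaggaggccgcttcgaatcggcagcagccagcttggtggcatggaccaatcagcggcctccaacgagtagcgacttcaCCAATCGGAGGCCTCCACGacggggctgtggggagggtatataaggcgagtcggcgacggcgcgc
The match lies 65 to 47 bases before the start site. The motif was found in 6 of 25 matched genes of this list, and in 35 of all 27025 genes in the table.

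The metallothioneins Mt1 and Mt2, which bind zinc, had estimated counts of 34482 and 25194 in K7M2-Tb livers, against 8645 and 4874 in PBS-2 livers, and the zinc exporter Slc30a1 rose by 1.11 ± 0.19 in the authors' deposited table. Of 12 hypoxia genes Epas1 and Adm rose and Egln3, Vegfa and Ndrg1 fell, with Egln3 at -2.18 ± 0.19 and the uncalled Hif1a at 0.17 ± 0.12. Of transporters of amino acids, Slc7a5, Slc7a8 and Slc1a5 rose and Slc7a2 and Slc38a4, both abundant in liver, fell, at 1.04, 1.09, 0.92, -0.57 and -0.52 in that table.

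The tumour effect was set against that of another metastatic tumour in the same strain and time. The 4T1-Tb group held 3 BALB/c livers taken 4 weeks after 4T1 mammary carcinoma cells had been placed in the mammary fat pad in 50 µl of PBS, and its PBS-5 group held 3 livers of mice given 50 µl of PBS there. 4T1 is known for a granulocyte reaction in its host. The effects share no samples, but tumour line, site and experiment cannot be told apart. Effects were compared with shrinkage removed from both tables, by a test of their difference per gene over 12579 genes. The effect was higher in K7M2-Tb for 1682 genes (13.4%) and lower for 1752 (13.9%). In the authors' deposited table of 4T1-Tb, 3425 of 15272 tested genes were higher (22.4%) and 3203 lower (21%). Of genes tested in both, 1338 were higher in both, which is 60.7% of those higher in K7M2-Tb and 45.0% of those higher in 4T1-Tb. Lower in both were 1126, which is 55.7% and 36.3%. Of the genes called in both, 161 were higher in K7M2-Tb and lower in 4T1-Tb, and 151 were lower in K7M2-Tb and higher in 4T1-Tb.

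Most interferon-stimulated and MHC class I genes had higher effects in K7M2-Tb. Of 34 interferon-stimulated genes the effect was higher in K7M2-Tb for 23 and lower for none, with median effects of 1.17 in K7M2-Tb and 0.24 in 4T1-Tb. For the GTPases it was 13 of 17, with medians of 1.01 in K7M2-Tb and -0.05 in 4T1-Tb, and for MHC class I 14 of 19. For MHC class II the z-test called 0 of 10 differences, and 1 had an unadjusted p under 0.05, with medians of 0.54 in K7M2-Tb and 0.72 in 4T1-Tb. Oas3 had an effect of 2.79 ± 0.30 in K7M2-Tb and 1.60 ± 0.26 in 4T1-Tb, a difference of 1.19 ± 0.40 with an adjusted p of 0.0138 (z-test with Benjamini-Hochberg adjustment). Complement gave 15 higher and 2 lower effects among 33, and acute phase genes 12 and 1 among 21. Saa3 had an effect of 7.42 ± 0.16 in K7M2-Tb and 3.18 ± 0.43 in 4T1-Tb, and Cd14 4.75 ± 0.26 in K7M2-Tb and 1.50 ± 0.28 in 4T1-Tb.

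Many of the matrix, endothelial and neutrophil genes that could be compared had lower effects in K7M2-Tb. Of 37 stellate and matrix genes the effect was lower in K7M2-Tb for 31 and higher for none, with medians of -0.62 in K7M2-Tb and 0.84 in 4T1-Tb. Col1a1 had an effect of -1.26 ± 0.21 in K7M2-Tb and 1.10 ± 0.24 in 4T1-Tb, with an adjusted p of 3.15e-11 for the difference by the same z-test. For the sinusoidal endothelium the effect was lower for 14 of 20. Neutrophil genes gave 7 lower and 2 higher effects among the 13 that could be compared. The median log2 fold change of these 13 in K7M2-Tb was 2.27, against 4.26 over all 32 tested, so the strongest rises are under-represented among them. Csf3r, the receptor for granulocyte colony-stimulating factor, had 1.71 ± 0.16 in K7M2-Tb and 4.92 ± 0.31 in 4T1-Tb. Progenitor genes gave 8 lower and 1 higher effects among 13, whereas the 5 erythroid genes that could be compared gave 3 higher and 0 lower, with medians of 1.07 in K7M2-Tb and -0.17 in 4T1-Tb. Mitotic genes gave 11 lower effects of 19, although all were higher in both tables. By that test the difference was called for 0 of 42 complex I genes, and 1 had an unadjusted p under 0.05, with medians of -0.51 in K7M2-Tb and -0.48 in 4T1-Tb. This does not show that the effects are equal. Falls of conjugation enzymes were smaller in K7M2-Tb, with higher effects for 18 of 24 glucuronosyltransferases and sulfotransferases and medians of -0.28 in K7M2-Tb and -1.32 in 4T1-Tb. PPAR-alpha genes gave 10 higher effects of 18, and clock genes 6 of 13.

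**Figure D4:**
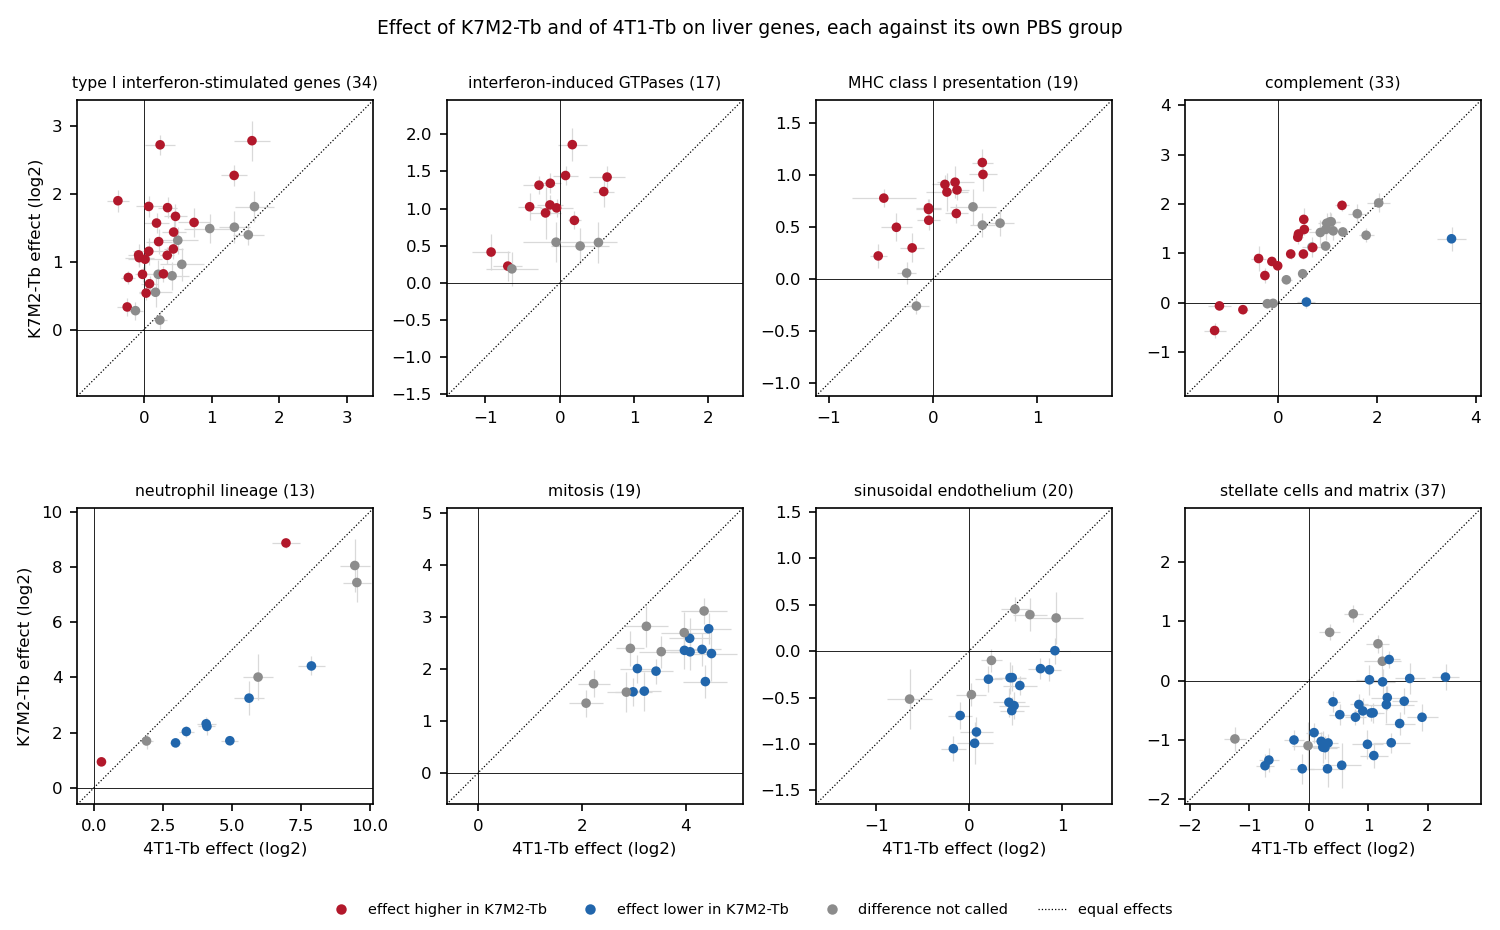
Effect (log2, shrinkage removed, with standard errors as grey lines) of K7M2-Tb on the vertical axis and of 4T1-Tb on the horizontal axis, each against its own PBS group, for the genes of 8 lists; colour marks a called difference and the dotted line equal effects. Interferon, GTPase and MHC class I genes lie mostly above the line, with medians of 1.17, 1.01 and 0.67 in K7M2-Tb, while stellate, endothelial and mitotic genes lie mostly below it.

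Another comparison used particles of the same tumour without the tumour. The K7M2-TE-EVPs group held 3 BALB/c livers of mice given 10 µg of EVPs from K7M2 tumour explants in 100 µl of PBS intravenously every other day for 4 weeks, and its PBS-7 group held 3 livers of mice given 100 µl of PBS in the same way. Route, dosing and experiment differ from those of K7M2-Tb and cannot be told apart from the presence of a tumour. In the authors' deposited table of K7M2-TE-EVPs, 162 of 11820 tested genes were higher (1.37%) and 316 lower (2.67%). The effect was higher in K7M2-Tb for 1202 of 11781 genes (10.2%) and lower for 993 (8.43%). Of the genes higher with EVPs and tested in both, 67 of 161 were higher in K7M2-Tb (41.6%), and of those lower with EVPs 146 of 316 were lower in K7M2-Tb (46.2%). These are 3.52% and 7.21% of the K7M2-Tb calls. Over all 11781 genes, 16.1% were higher and 17.2% lower in K7M2-Tb. Of the genes called in both, 20 were higher in K7M2-Tb and lower with EVPs, and 9 were lower in K7M2-Tb and higher with EVPs.

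Acute phase genes were not called with EVPs. By the authors' DESeq2 test it was 0 of 21, and 7 had an unadjusted p under 0.05, with a median effect of 2.96 in K7M2-Tb and 0.22 in K7M2-TE-EVPs, and the effect was higher in K7M2-Tb for 19. Hp had an effect of 3.10 ± 0.09 in K7M2-Tb and 0.29 ± 0.36 in K7M2-TE-EVPs. Lcn2 and Saa2 had 1.59 ± 0.90 and 2.29 ± 1.06 in K7M2-TE-EVPs, with wide errors. The effect was also higher in K7M2-Tb for 24 of 33 complement genes, 24 of 34 interferon-stimulated genes and 11 of 15 Kupffer genes. Of 24 amino acid genes 10 were lower with EVPs, 17 were lower in K7M2-Tb and the effect was lower in K7M2-Tb for 9. Hpd had an effect of -1.32 ± 0.13 in K7M2-Tb and -0.34 ± 0.08 in K7M2-TE-EVPs. Complex I genes were lower with EVPs in 4 of 43 cases, and for 20 the effect was lower in K7M2-Tb, whereas in complex IV it was 10 of 11 with a median effect of 0.03 in K7M2-TE-EVPs. In the unfolded protein list 5 of 25 genes were higher with EVPs, and for 6 the effect was higher in K7M2-Tb. Stellate and matrix genes gave 21 lower and 1 higher effects of 36.

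**Figure D5:**
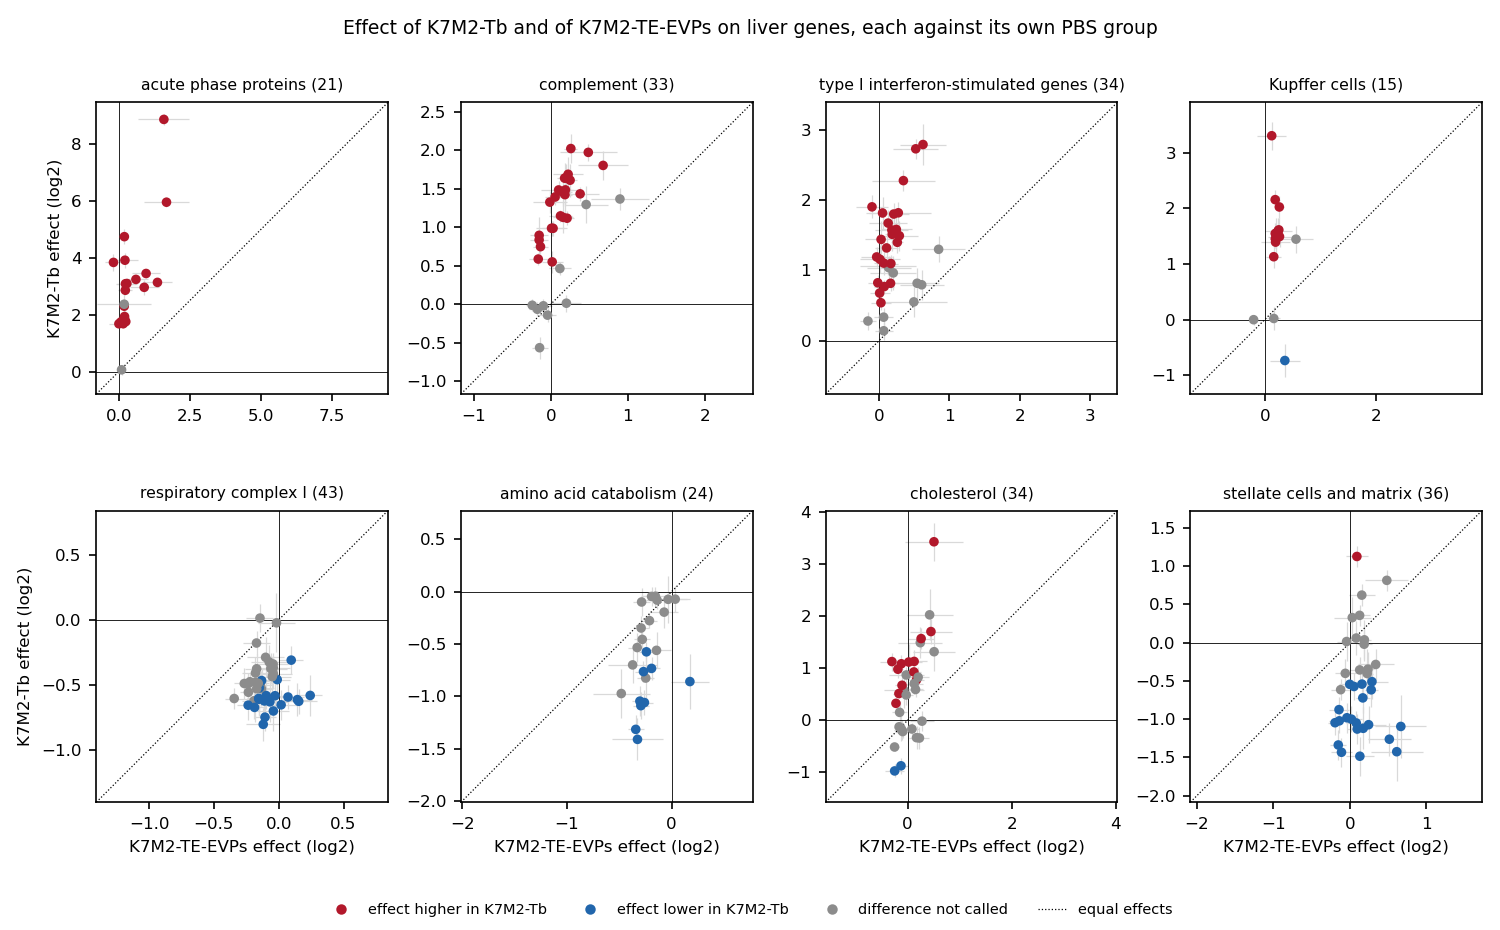
Effect (log2, shrinkage removed, with standard errors as grey lines) of K7M2-Tb on the vertical axis and of K7M2-TE-EVPs on the horizontal axis, each against its own PBS group, for the genes of 8 lists; colour marks a called difference and the dotted line equal effects. Acute phase, complement, interferon and Kupffer genes are spread vertically near an EVP effect of 0, with EVP medians of 0.22, 0.13, 0.15 and 0.19.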

How the data were processed

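TruSeq Stranded mRNA libraries were made from flash-frozen livers, per the labels' protocols. Per the submitters' processing notes, bcl2fastq 2.19, TopHat2 2.0.11, Cufflinks 2.1.1, DESeq2 and the build mm9 were used; the role of each step is not given in the sources used here. The files hold 13 comparison tables, of which 3 were used, and none gives values per sample, so library depths are unknown. In each table, per the file headers, the authors give the mean normalised count over both groups (a signal value), the log2 fold change with its standard error, the p-value and the adjusted p-value. The 4T1-Tb table also deposited the test statistic, a score. Of 42687 identifiers 42250 are in GENCODE M21, which is on GRCm38 and served for lengths and coordinates. Symbols were those the authors gave.

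The authors' calls were used as deposited, in place of a new fit of counts. The fold changes of K7M2-Tb and K7M2-TE-EVPs were matched to a Cauchy prior of width 0.268 and 0.182, which brought 95.1% and 78.0% of the test statistics within 10% of those implied by the p-values. Those of 4T1-Tb matched a normal prior of width 0.871. Effects with the prior removed were compared by a two-sided z-test with Benjamini-Hochberg adjustment, leaving out 4T1-Tb genes with a mean count under 10 or a standard error of at least 0.9 of the largest. On simulated data with 200 changed genes in each run, a difference of 1 (log2) was called for 69.5% against 4T1-Tb over 12579 genes and for 82.5% against K7M2-TE-EVPs over 11781 genes. The simulation took the recovered errors and the matched priors as exact. These rates therefore hold only as far as both are right, and the prior match was weaker for K7M2-TE-EVPs.

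The 82 lists name 1686 genes, of which 1571 were tested. Members, lists and tests were chosen with earlier results of these data known. The named genes were the 12 largest called rises and falls with a mean count of 50 or more, leaving out predicted genes, in each list the 6 members with the lowest p-values, all members of lists of up to 25, and the 8 largest differences each way in each comparison of effects. Other list members named by role, and the genes under other observations, were chosen after their values were seen. Some members of the lists are not reported here. Promoters were matched by symbol to RefSeq, which gave 27025 genes. Python 3.11.15, pandas 2.3.3, numpy 2.4.6, SciPy 1.17.1 and matplotlib 3.10.9 were used.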

Additional observations from a re-analysis of the deposited data

Results flagged for a closer look

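The genes below are those whose effect in K7M2-Tb differed most from the effect of 4T1-Tb or of K7M2-TE-EVPs by the z-test of the difference. Values are differences of log2 effects with shrinkage removed, K7M2-Tb minus the other. Tumour line, route and experiment cannot be told apart in either comparison.

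Against 4T1-Tb, differences above 0 were 4.24 for Saa3, 3.32 for Pklr, the liver pyruvate kinase, 3.27 for the fructose transporter Slc2a5 and 3.25 for Cd14. They were 3.10 for the water channel Aqp4, 3.03 for the reductase Akr1b7, 3.02 for Cyp2g1 and 3.00 for Cyp2a22. Pklr was at 0.97 ± 0.17 in K7M2-Tb and -2.36 ± 0.17 in 4T1-Tb, so the effects had opposite signs. Differences below 0 were -5.94 for the dynein gene Dnaic1, -5.37 for Fam25c, -5.05 for Csad, an enzyme of taurine synthesis, and -3.95 for the imprinted gene Peg3. They were -3.49 for Anxa1, an annexin of leukocytes, -3.22 for Csf3r, -3.19 for the sorting receptor Sorl1 and -3.14 for Atp8b4. Csad was at -2.35 ± 0.30 in K7M2-Tb and 2.70 ± 0.25 in 4T1-Tb. Slc2a5, Peg3 and Atp8b4 were not called in K7M2-Tb itself.

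Against K7M2-TE-EVPs, differences above 0 were 7.28 for Lcn2, 6.67 for Saa3, 6.53 for Saa2 and 5.73 for Saa1. They were 5.09 for the imprinted RNA H19, 4.93 for S100a8, 4.65 for S100a9 and 4.55 for Cd14. Differences below 0 were -3.74 for Ces3b, -3.70 for Ntrk2, -3.46 for Fam25c and -3.33 for Krt23. They were -2.98 for Csad, -2.95 for Acot1, -2.90 for Pdk4, the kinase that turns pyruvate dehydrogenase off, and -2.77 for Dnaic1. Fam25c, Csad and Dnaic1 had lower effects in K7M2-Tb in both comparisons. Outlying livers could not be looked for without values per sample.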

How the results depend on the processing

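No called gene reversed its direction, but the other thresholds and filters reuse the same fold changes and could not turn a sign. Re-centring could, but the median effect it removed was only -0.02. Under a Bonferroni adjustment, 1070 genes were higher in K7M2-Tb livers and 544 lower, in place of 2615 and 2237, and of the list members 327 were higher and 184 lower, in place of 493 and 436. With an absolute log2 fold change of at least 1 as well, it was 1044 and 301 genes, and 288 and 74 list members. An adjusted p under 0.01, no filter on the mean count, a mean count of at least 10 or 50, and re-centring on the median effect moved these counts by less than 1.5 times. Of 418 called genes under the rule for named genes, the call was lost for 98 under Bonferroni, 193 under the fold limit, 24 at an adjusted p under 0.01, 43 at a mean count of at least 50, and 6, 5 and 1 at a mean count of at least 10, with no filter and with re-centring. Of 162 list counts, 79 moved by over 1.5 times under Bonferroni, 94 under the fold limit, 22 at an adjusted p under 0.01, 20 at a mean count of at least 50, and 5, 3 and 2 with no filter, with re-centring and at a mean count of at least 10.

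With errors multiplied by 1.25, differences of effect fell to 957 higher and 1064 lower against 4T1-Tb, in place of 1682 and 1752, and to 729 higher and 469 lower against K7M2-TE-EVPs, in place of 1202 and 993. At an adjusted p under 0.01 it was 1076 higher against 4T1-Tb and 579 lower against K7M2-TE-EVPs.

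New count fits, other normalisations and leaving out each liver were not run, because the tables used hold no values per sample. No paired analysis was possible because the same tables carry no replicate. The depth of the libraries is unknown, so limits can be taken only from the authors' standard errors, which had a median of 0.39 among tested genes with a mean count under 10. These are errors of the shrunken fold changes and can understate the uncertainty at such counts.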

Other observations

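Genes of fetal liver and imprinted genes, in no list above, were looked at after their values were seen. H19, an imprinted RNA of the fetal liver, had estimated counts of 33986 in K7M2-Tb livers and 1051 in PBS-2 livers. Afp, alpha-fetoprotein, had 333 in K7M2-Tb livers and 45.7 in PBS-2 livers. Both were called, and so was Igf2, the fetal growth factor gene beside H19; the 3 genes were at 4.99 ± 0.27, 2.80 ± 0.31 and 4.41 ± 0.56 in the authors' deposited table. Meg3, Igf2bp2 and Gpc3 rose as well, by 0.82 ± 0.32, 0.58 ± 0.28 and 0.37 ± 0.20 there. Other imprinted genes did not share this: Cdkn1c, Mest, Plagl1, Igf2r, Grb10 and Snrpn were at 0.02, 0.07, -0.22, 0.15, 0.02 and 0.07 without a call, and Ndn and Zim1 fell, at -0.86 ± 0.38 and -1.20 ± 0.84 in that table. With shrinkage removed, the Igf2 effect was 4.54 ± 0.53 in K7M2-Tb and 1.33 ± 0.43 in 4T1-Tb, and the Afp effect 2.87 ± 0.30 in K7M2-Tb and 3.03 ± 0.29 in 4T1-Tb. In K7M2-TE-EVPs the effects of H19 and Afp were -0.07 ± 0.18 and -0.23 ± 0.22. Erythroid and mitotic genes rose in the same livers, and their part in these values was not tested.

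Further large changes lay outside the lists. Slc41a2, a magnesium transporter, had estimated counts of 1893 in K7M2-Tb livers and 40.4 in PBS-2 livers, Noxa1, an activator of superoxide production, had 125 in K7M2-Tb livers and 3.42 in PBS-2 livers, and Cyb561, an ascorbate-dependent reductase, had 418 in K7M2-Tb livers and 12.8 in PBS-2 livers. Dnajc12, a co-chaperone gene, rose by 3.30 ± 0.11 in the authors' deposited table, and Tifa, an adaptor of NF-kB signalling, by 2.78 ± 0.22. Among falls, Mfsd2a, a carrier of lysophospholipids, had estimated counts of 609 in K7M2-Tb livers and 2811 in PBS-2 livers, Ethe1, of mitochondrial sulfide oxidation, had 392 in K7M2-Tb livers and 1339 in PBS-2 livers, and Ephx1, the microsomal epoxide hydrolase, had 2048 in K7M2-Tb livers and 6748 in PBS-2 livers. Cyr61, a target of YAP, was at -1.75 ± 0.28 in that table.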
